A study of Mus musculus with 8 samples.

Results

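The Hox genes of the mouse were followed in tissue from above and below the dorsal aorta at embryonic day 12.5. Members were the genes whose symbol joins Hox, a cluster letter from a to d and a paralog group number. There were 38 of them among 24675 named genes, 10 in the HoxA cluster on chromosome 6, 10 in HoxB on chromosome 11, 9 in HoxC on chromosome 15 and 9 in HoxD on chromosome 2. The series used C57Bl/6 embryos and compared dorsal tissue, lying from the notochord to the aortic roof, with ventral tissue, lying under the aorta, both cut by laser from frozen sections of the same animals. There were 4 Affymetrix Gene 2.0 ST arrays per tissue, numbered 1 to 4 as biological replicates, and no treatment or genetic change is named in the labels. The labels do not say how many embryos an array holds. A replicate number stands for the pair of arrays, 1 from each tissue, that carry it.

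Hox genes encode homeodomain transcription factors that give cells of the embryo their position along the head to tail axis. They sit in clusters, and genes at the low-numbered end of a cluster are switched on earlier and farther forward than those at the high-numbered end. Genes with the same number in different clusters are paralogs, copies of the same ancestral gene, and often act together. In the trunk they pattern the vertebrae, the spinal cord, the mesoderm beside the aorta and the gut wall, and the highest-numbered genes also pattern the limbs and the genital region. Some members, such as Hoxb4 and Hoxa9, are known for roles in blood stem cells.

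Values are log2 intensities, and all differences are ventral minus dorsal on that scale. The array medians over all rows lay between 3.59 and 3.65. A gene above the median of the array on at least 4 of 8 arrays was tested, which held for 12416 genes, 50.3% of those named. Different genes are read by different probes, so a gene is described as above or below the median and genes are not ranked by level. As these are bulk tissues, fewer cells of a type and less RNA per cell cannot be told apart. To describe tissue identity, Pax1, a sclerotome factor, lay at 5.12 to 6.72 on dorsal and 3.36 to 3.91 on ventral arrays. Tcf21, a factor of visceral mesenchyme, lay at 2.72 to 3.80 on dorsal and 4.93 to 8.01 on ventral arrays. Tcf21 was picked by its result in these data, so it is no independent check. In the splanchnic and gut mesenchyme list that holds it, 11 tested genes were higher and 4 lower in ventral tissue. Foxf2 at -1.34 and Ptch1 at -1.69 were among the lower. With 4 arrays a tissue, precision is limited throughout.

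Start-site sequences are shown for Hoxa9, Hoxd10 and Hoxd13, which are among the 9 members at an unadjusted p under 0.05 in limma's test of replicate number. That of Hoxa7, which did not overlap between the tissues, is shown too. None is shown for Hoxc6 and Hoxc8, which differed most between the tissues. RefSeq windows on GRCm38.p6, from 250 bases before to 50 bases after a start site, matched 22 of the members with 24 windows. Each is printed 5′ to 3′ on the strand of the gene, and capitals mark CG dinucleotides. Hoxa7 lies at chr6:52218524-52218823 on the minus strand, Hoxa9 at chr6:52227321-52227620 on the minus strand, Hoxd10 at chr2:74691641-74691940 on the plus strand and Hoxd13 at chr2:74667975-74668274 on the plus strand.
Hoxa7: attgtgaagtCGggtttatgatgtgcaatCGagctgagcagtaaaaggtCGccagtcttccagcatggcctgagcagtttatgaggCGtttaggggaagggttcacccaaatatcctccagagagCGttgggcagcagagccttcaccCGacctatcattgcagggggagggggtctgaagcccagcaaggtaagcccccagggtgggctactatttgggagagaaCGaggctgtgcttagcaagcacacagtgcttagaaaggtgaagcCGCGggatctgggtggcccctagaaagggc
Hoxa9: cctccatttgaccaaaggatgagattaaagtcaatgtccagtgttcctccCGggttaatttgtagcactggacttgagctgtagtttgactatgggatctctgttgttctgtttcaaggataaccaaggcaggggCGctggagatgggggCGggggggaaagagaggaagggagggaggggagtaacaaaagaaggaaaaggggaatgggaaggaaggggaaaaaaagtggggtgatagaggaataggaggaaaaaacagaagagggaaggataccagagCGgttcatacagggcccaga
Hoxd10: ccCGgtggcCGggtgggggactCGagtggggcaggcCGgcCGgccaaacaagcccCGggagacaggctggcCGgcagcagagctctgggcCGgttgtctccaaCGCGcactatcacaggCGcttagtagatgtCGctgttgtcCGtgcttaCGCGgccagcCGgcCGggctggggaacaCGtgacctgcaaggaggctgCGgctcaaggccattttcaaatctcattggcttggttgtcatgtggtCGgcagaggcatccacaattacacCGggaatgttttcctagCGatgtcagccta
Hoxd13: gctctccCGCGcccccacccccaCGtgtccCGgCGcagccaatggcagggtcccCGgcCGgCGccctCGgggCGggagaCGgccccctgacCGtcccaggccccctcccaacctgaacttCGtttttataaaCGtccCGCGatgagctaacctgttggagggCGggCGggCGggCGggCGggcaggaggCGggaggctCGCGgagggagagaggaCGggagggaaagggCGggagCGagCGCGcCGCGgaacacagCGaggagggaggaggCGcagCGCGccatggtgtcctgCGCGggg
The windows differ widely in CG content, with 9 dinucleotides in Hoxa7, 4 in Hoxa9, 22 in Hoxd10 and 37 in Hoxd13. The median was 14.5 over the 24 Hox windows and 7 over all 32851 windows of that length. The letters TTTATG, a form of the Cdx recognition sequence, were searched on both strands. They occur 2 times in Hoxa7 and not in the other 3 windows shown, in 5 of 24 Hox windows (20.8%) and in 11.9% of all windows. TGATTNAT, a Pbx and Hox composite, was found in 2 Hox windows (8.33%, against 3.22% of all), and TGACAG, read by Meis, in 2 (8.33%, against 19.2%). None of the 3 motifs contains another, and a match is a description of letters only.

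Most of the members were above background in aortic tissue, which here means above the array median on at least 4 of 8 arrays. Those below the median on all arrays sat at the cluster ends. Of the 38, 28 passed this filter, against 50.3% of all named genes, and 16 were above the array median on all 8 arrays. The share of all genes was not counted for the 16 or for the stricter marks that follow. With a stricter mark, the 95th percentile of 1374 olfactory, vomeronasal and trace amine receptor genes that trunk tissue is not known to use, 23 were above it on at least 4 arrays. At the 99th percentile of those receptors there were 12, of which Hoxa3, Hoxb6 and Hoxc4 were above it on all 8 arrays. The 10 members that did not pass were Hoxa6, Hoxa11, Hoxb1, Hoxb8, Hoxb13, Hoxc11, Hoxc12, Hoxc13, Hoxd1 and Hoxd9. Of these, 6 were below the median on all 8 arrays: Hoxb1, Hoxb13, Hoxc11, Hoxc12, Hoxc13 and Hoxd1.

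**Figure D1:**
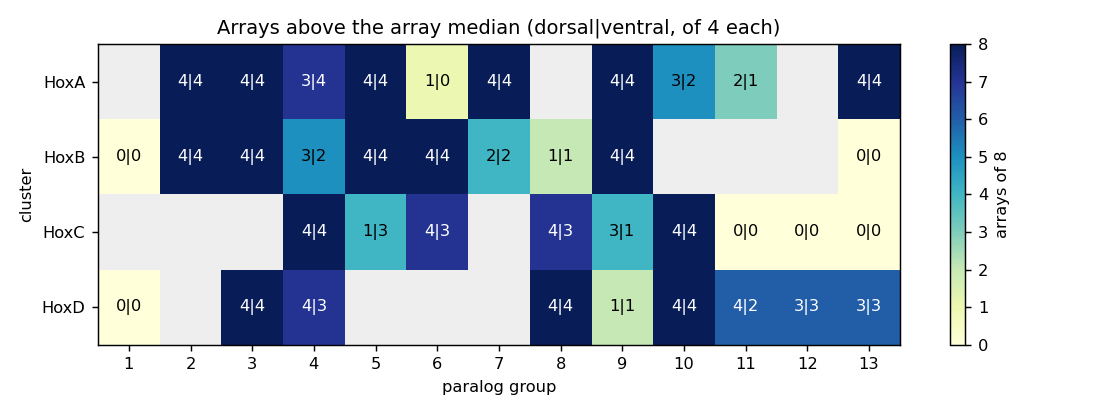
Number of arrays on which each Hox gene was above the median of all rows of the array, by cluster (rows) and paralog group (columns), written as dorsal|ventral out of 4 each. Colour gives the total out of 8 and grey cells hold no member. Hoxb1 and Hoxd1, Hoxb13 and Hoxc11 to Hoxc13 were at 0 on all arrays.

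HoxA ran from Hoxa2 to Hoxa13 above background, with gaps at Hoxa6 and Hoxa11, and with Hoxa10 above the median on 5 of 8 arrays. Hoxa2, the lowest-numbered member above background and a hindbrain and neural crest patterning gene, lay at 5.37, 5.10, 5.26 and 4.68 on dorsal arrays 1 to 4 and at 4.22, 6.19, 5.83 and 5.75 on ventral arrays 1 to 4. Ventral array 1 was low and the tissues overlapped. At the other end Hoxa13, a gene of limb tips, hindgut and genital tubercle, was above the median on all 8 arrays, at 5.75, 4.61, 5.30 and 3.77 in dorsal and 6.71, 3.91, 5.01 and 3.90 in ventral tissue. Its highest values were on array 1 of each tissue. Hoxa11, a limb and kidney gene, was above the median on 3 of 8 arrays, from 2.88 to 4.51 in dorsal and 2.93 to 4.91 in ventral tissue. Hoxa6 was above it on dorsal array 3 alone, and its values of 2.95 to 3.94 lie around background.

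HoxB was above background from Hoxb2 to Hoxb9, except Hoxb8, and Hoxb1 and Hoxb13 were not. Hoxb2 lay at 4.66, 3.72, 3.66 and 4.15 on dorsal arrays 1 to 4 and at 3.78, 4.28, 3.86 and 4.37 on ventral arrays 1 to 4, with full overlap. Hoxb4, which expands blood stem cells when overproduced, stayed within 3.15 to 3.80 on all arrays and did not reach the receptor mark at the 95th percentile on any of them. Hoxb9, a thoracic patterning gene, stood at 6.85 on dorsal array 1 and at 4.00 to 4.27 on the other dorsal arrays, and at 4.13, 3.80, 4.36 and 4.05 on ventral arrays. Hoxb8 stood at 6.17 on dorsal array 1 and at 3.19, 3.06 and 3.29 on dorsal arrays 2 to 4, and at 2.92, 2.46, 4.26 and 3.51 on ventral arrays, of which array 3 was above the median. In both genes a lone array carries the dorsal mean.

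HoxC was above background from Hoxc4 to Hoxc10 and below it from Hoxc11 to Hoxc13. Hoxc4 lay at 6.47, 6.50, 6.33 and 6.25 on dorsal arrays 1 to 4 and at 5.43, 6.07, 6.49 and 5.84 on ventral arrays 1 to 4. Ventral array 3 lay within the dorsal range and the other 3 ventral arrays lay under it. Hoxc10, a lumbar patterning gene, was at 6.23 on dorsal array 1, at 4.12 to 4.63 on the other dorsal arrays and at 4.83, 4.30, 3.93 and 3.85 on ventral arrays. Hoxc11, Hoxc12 and Hoxc13 did not exceed 3.47 on any array.

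HoxD was above background at Hoxd3, Hoxd4, Hoxd8 and Hoxd10 to Hoxd13, and not at Hoxd1 or Hoxd9. Hoxd3 lay at 5.14, 3.73, 4.19 and 3.80 on dorsal arrays 1 to 4 and at 3.62, 3.74, 4.34 and 3.93 on ventral arrays 1 to 4. Hoxd13, a gene of digits and genital tubercle, spanned the greatest range of the cluster, at 8.13, 4.97, 7.01 and 3.35 in dorsal and 9.45, 5.90, 5.54 and 3.37 in ventral tissue. Array 4 of each tissue was below the median and array 1 was the highest of each. Hoxd9 was above the median on 2 arrays only, at 4.28 on dorsal array 1 and 4.23 on ventral array 1, and lay from 2.53 to 2.82 on the rest. Gene spans overlap in the RefSeq models for Hoxa3 with Hoxa4, Hoxa5 and Hoxa6, for Hoxb3 with Hoxb4, for Hoxd3 with Hoxd4 and for Hoxd10 with Hoxd11, so signal could be shared within these.

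**Figure D2:**
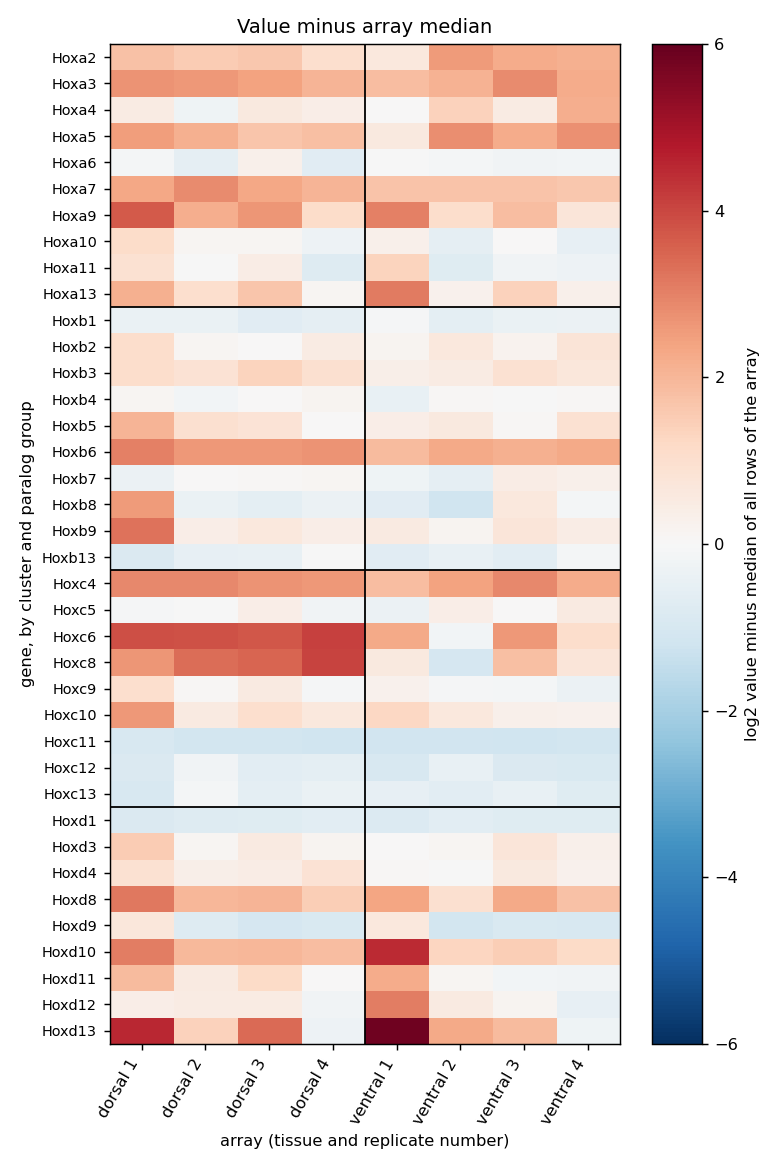
Log2 value minus the median of all rows of the same array, for the 38 Hox genes (rows, by cluster and paralog group) on the 8 arrays (columns). Red is above and blue below the median. Hoxc6 and Hoxc8 are redder on the dorsal side, and Hoxa9, Hoxd10 and Hoxd13 on array 1 of each tissue.

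The dorsal and ventral tissues differed most in the middle of HoxC. Hoxc8, which patterns thoracic vertebrae and motor neurons, lay at 6.26, 6.93, 7.10 and 7.72 on dorsal arrays 1 to 4 and at 4.19, 2.62, 5.42 and 4.33 on ventral arrays 1 to 4. All dorsal values lay above all ventral values, and ventral array 2 was below the array median. The difference was -2.86 (SE 0.43), with -2.06, -4.31, -1.68 and -3.39 in replicate numbers 1 to 4. It did not pass limma's test (adjusted p = 0.149, and 0.0813 to 0.417 over the other settings).

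Hoxc6, its neighbour on the low-numbered side and a thoracic and forelimb-level patterning gene, showed the same order. It lay at 7.48, 7.41, 7.36 and 7.77 on dorsal arrays 1 to 4, within 0.41 of each other, and at 5.87, 3.50, 6.23 and 4.66 on ventral arrays 1 to 4. The dorsal arrays were close together and the ventral arrays spread widely, without overlap between the tissues. The difference was -2.44 (SE 0.45), in 4 of 4 replicate numbers, and did not pass limma's test (adjusted p = 0.211, and 0.124 to 0.464 over the other settings). In both genes ventral array 2 was the lowest and ventral array 3 the highest ventral value. Hoxc5 and Hoxc9, which flank the pair, stood near the median, and differed by 0.13 (SE 0.21) and -0.45 (SE 0.16).

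Hoxa7 and Hoxb6 were the other members without overlap between tissues. Hoxa7, a thoracic patterning gene, lay at 5.94, 6.44, 5.94 and 5.69 on dorsal arrays 1 to 4 and at 5.30, 5.35, 5.32 and 5.25 on ventral arrays 1 to 4. The ventral arrays agreed within an SD of 0.04, against 0.31 in dorsal tissue. The difference was -0.70 (SE 0.19; limma adjusted p = 0.362). Hoxb6 lay at 6.62, 6.22, 6.21 and 6.35 in dorsal and 5.47, 5.91, 5.75 and 5.88 in ventral tissue, a difference of -0.60 (SE 0.20; limma adjusted p = 0.493). Its replicate number 1 differed by -1.15 and the others by -0.31 to -0.47.

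In 4 further members the ventral array was lower in 4 of 4 replicate numbers although the tissues overlapped. Hoxa9, which acts in blood stem cells and in thoracic to lumbar patterning, lay at 7.31, 5.77, 6.26 and 4.75 in dorsal and 6.62, 4.71, 5.47 and 4.34 in ventral tissue. Each ventral array lay under the dorsal array of the same number by 0.41 to 1.06, while the arrays of a tissue spanned more than that. The difference was -0.74 (SE 0.19; limma adjusted p = 0.315). Hoxb3 lay at 4.65, 4.46, 4.98 and 4.61 in dorsal and 3.95, 4.14, 4.54 and 4.29 in ventral tissue, a difference of -0.44 (SE 0.16). Hoxa10 lay at 4.73, 3.72, 3.73 and 3.34 in dorsal and 3.90, 3.09, 3.65 and 3.11 in ventral tissue, a difference of -0.44 (SE 0.16). Hoxc9 lay at 4.62, 3.68, 4.15 and 3.58 in dorsal and 3.85, 3.59, 3.52 and 3.27 in ventral tissue, a difference of -0.45 (SE 0.16). Hoxa10 and Hoxc9 were close to the array medians, which limits their differences. Without the block, limma's unadjusted p was 0.24 for Hoxa9, 0.167 for Hoxa10 and 0.0806 for Hoxc9. With 1 array left out and no block, Hoxa9 ran from -1.18 to -0.31, Hoxa10 from -0.62 to -0.16 and Hoxc9 from -0.59 to -0.25.

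**Figure D3:**
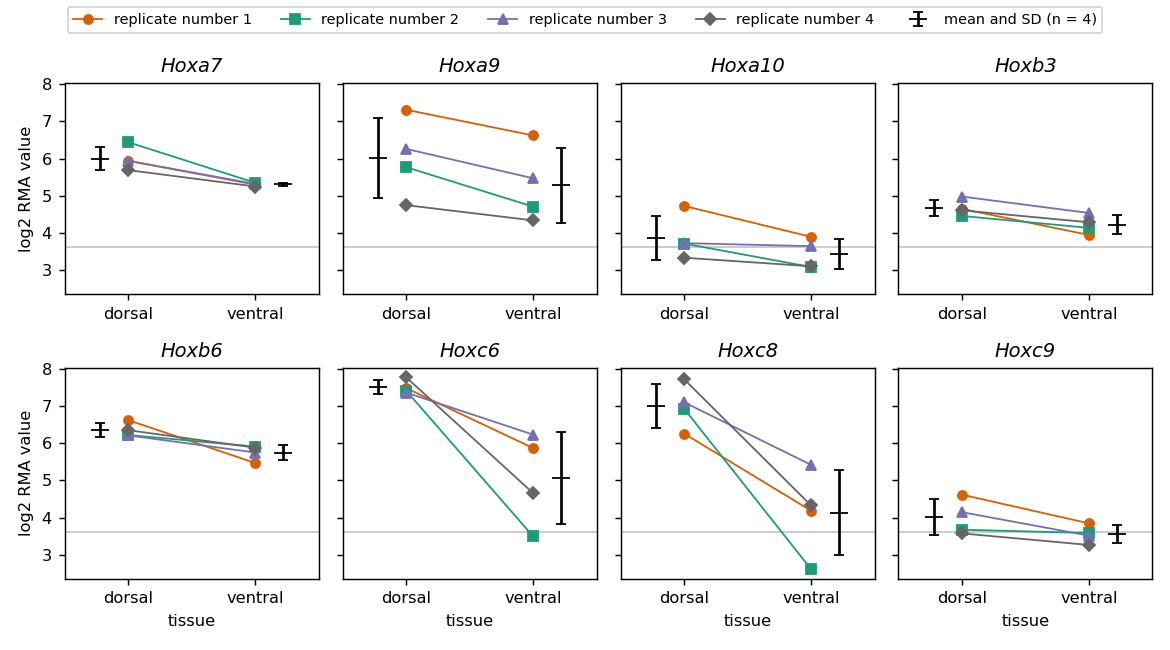
Log2 values of the 8 Hox genes with an unadjusted p under 0.05 for tissue. Lines join the dorsal and ventral array of a replicate number, black marks give the mean and SD of 4 arrays, and the grey band spans the array medians (3.59 to 3.65). All lines go down to the right, and Hoxc6 and Hoxc8 go down farthest.

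Across the members, limma called 0 of 28 tested Hox genes at an adjusted p under 0.05 over all genes tested, as it called 0% of all genes. At an unadjusted p under 0.05 there were 8 Hox genes lower in ventral tissue, against 4.18% of all genes tested, and 0 higher, against 4.08%. Dorsal arrays were all above ventral arrays in 4 members (2.38% of all genes) and the reverse held in 0 (2.01%). The median difference of the 28 was -0.37, against -0.00 over all genes, with 19 lower (50.8% of all genes) and 9 higher. The ventral array was lower in 4 of 4 replicate numbers in 8 members (8.46% of all genes) and higher in 4 of 4 in 0 (7.93%). Without the block, 0 Hox genes were called, against 0.0322% of all genes. The median difference of the 28 stood at -0.82, -0.32, -0.31 and -0.18 within replicate numbers 1 to 4. Without replicate number 1 the median was -0.20, and without dorsal replicate 1 alone, in a fit without the block, it was -0.09. The count of 8 was 6 in the fit without the block, which dropped Hoxa9, Hoxa10 and Hoxc9 and added Hoxd4. From those 6 it became 4 without dorsal replicate 1, ventral replicate 2 or ventral replicate 4, and 9 without ventral replicate 1.

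By cluster, the median difference was -0.09 in HoxA (8 tested), -0.44 in HoxB (7 tested), -0.52 in HoxC (6 tested) and -0.31 in HoxD (7 tested). By paralog group it was -0.20 for groups 1 to 4, -0.49 for groups 5 to 8 and -0.43 for groups 9 to 13. All 4 members without overlap belong to groups 5 to 8. Paralogs had unlike values, a contrast that was not tested: Hoxc6 differed by -2.44 and Hoxb6 by -0.60, and Hoxc8 by -2.86 while Hoxd8 differed by -0.33 (SE 0.27). Whether clusters or groups differ from each other was not tested.

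The members numbered higher in ventral tissue were few and variable. Hoxa4 had the greatest difference in that direction, 0.70 (SE 0.41), at 4.11, 3.36, 4.20 and 4.05 in dorsal and 3.61, 5.01, 4.10 and 5.80 in ventral tissue. Ventral arrays 2 and 4 were high and ventral arrays 1 and 3 lay within the dorsal range. The difference was 0.38 without replicate number 2, 0.35 without number 4 and 1.10 without number 1. Hoxa5, which patterns the neck, lung and foregut wall, had a like layout: 6.12, 5.73, 5.29 and 5.45 in dorsal and 4.19, 6.41, 5.86 and 6.36 in ventral tissue. It differed by -1.93 in replicate number 1 and by 0.57 to 0.91 in the others, with a mean of 0.06 (SE 0.47) and 0.72 without replicate number 1. Hoxa2 had the same split, with -1.15 in number 1 and 0.57 to 1.10 in the others. Hoxd12, at 6.66 on ventral array 1 and 3.14 to 4.18 on all other arrays, differed by 0.53, or by -0.18 without replicate number 1. Hoxc5 and Hoxd8 are given above. They and the other 14 tested members overlapped between the tissues and had an unadjusted p above 0.05. The 14 ran from -0.72 (SE 0.46) in Hoxb9 to 0.20 (SE 0.43) in Hoxd13. Hoxb9 became -0.05 and Hoxb5, at -0.49, became -0.09 without replicate number 1. Hoxc10 stood at -0.59 and Hoxc4 at -0.43, and Hoxd4, Hoxd11, Hoxd3, Hoxa3 and Hoxb4 at -0.42, -0.41, -0.31, -0.20 and -0.12. Hoxb2 stood at 0.02 and Hoxb7 at 0.01. Hoxd10 stood at -0.10, with 1.39 in replicate number 1 and -0.59, -0.48 and -0.70 in the others, and became -0.59 without number 1. Hoxa13 stood at 0.02 and became -0.29 without it.

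**Figure D4:**
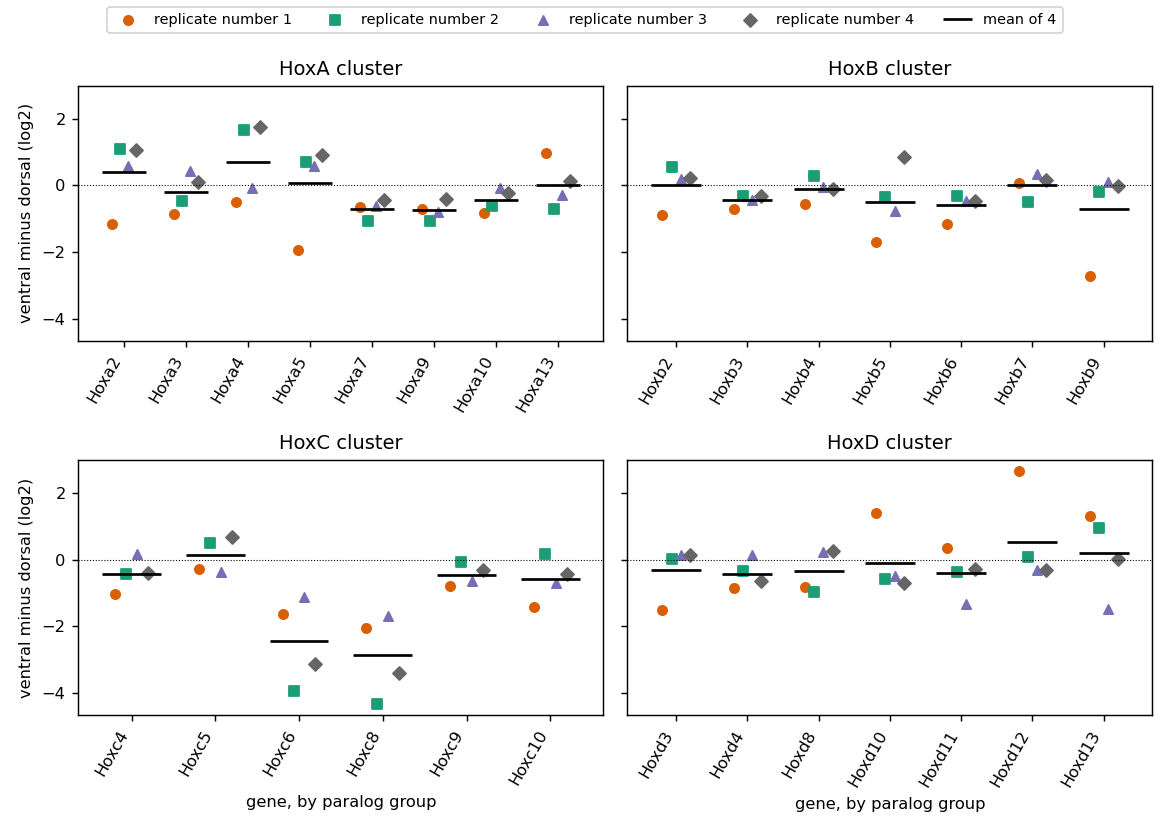
Ventral minus dorsal difference (log2) of the 28 tested Hox genes, in a panel for each cluster and in order of paralog group. Symbols are the 4 replicate numbers and bars their mean. Hoxc6 and Hoxc8 are below -1 in 4 of 4 numbers, while in Hoxa2, Hoxa5 and Hoxd12 number 1 lies apart from the rest.

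The widest variation among the members was between replicate numbers and followed paralog group. In groups 8 to 13 the arrays numbered 1 were the highest in both tissues in 9 of 12 tested members, and in groups 1 to 7 in 0 of 16. Among all genes tested this held for 6.73%. Numbers 2, 3 and 4 were highest in both tissues in 1, 1 and 0 of the 28 members, against 6.31%, 5.94% and 7.5% of all genes. The arrays numbered 4 were the lowest in both tissues in 7 of those 12, against 7.31% of all genes, and in 8 of all 28. Numbers 1, 2 and 3 were lowest in both in 0, 2 and 0 of the 28, against 8.84%, 5.9% and 4.13%. The 3 members of groups 8 to 13 where number 1 was not highest in both were Hoxc8, Hoxb9 and Hoxd12. This grouping was read from the values, so it is a description.

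Hoxd13 spanned the most. Fitted over both tissues, number 1 lay 2.83 above and number 4 lay at -2.61 relative to the mean of the numbers, with -0.53 for number 2 and 0.31 for number 3. Hoxa9 followed in the same order, at 1.31, -0.42, 0.21 and -1.11 for numbers 1 to 4. Hoxa13 had 1.36, -0.61, 0.28 and -1.04. In the fit all 3 thus share the order 1, 3, 2, 4 from high to low, across 2 clusters. It did not hold for Hoxd13 in ventral tissue, with 5.90 on array 2 and 5.54 on array 3.

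Within HoxD the separation of array 1 varied by gene. Hoxd10, a gene of lumbar motor neurons and hindlimb, lay at 6.66, 5.54, 5.60 and 5.48 on dorsal arrays 1 to 4 and at 8.05, 4.95, 5.11 and 4.78 on ventral arrays 1 to 4. Hoxd11, a gene of kidney, sacral vertebrae and forearm, lay at 5.50, 4.12, 4.79 and 3.67 in dorsal and 5.84, 3.74, 3.48 and 3.39 in ventral tissue. Hoxd8 lay at 6.77, 5.59, 5.66 and 5.13 in dorsal and 5.95, 4.61, 5.89 and 5.38 in ventral tissue. Number 1 was highest in both tissues in each of the 3. It lay far above the rest in Hoxd10 and in ventral Hoxd11, and ventral Hoxd8 was nearly as high on array 3.

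Limma's test of the replicate number passed no gene at an adjusted p under 0.05, Hox or other (0% of all genes). The smallest adjusted p among members were 0.264 for Hoxa9 and 0.327 for Hoxd13. At an unadjusted p under 0.05 there were 9 Hox genes, against 6.02% of all genes: Hoxa9, Hoxa10, Hoxa13, Hoxc9, Hoxc10, Hoxd8, Hoxd10, Hoxd11 and Hoxd13. Of the 28 tested members, 8 reached that mark with the fitted level highest in number 1 and lowest in number 4. Among all genes tested, 0.983% met both conditions. Hoxd8 was highest in number 1 and lowest in number 2. No member of groups 1 to 7 was among the 9. Without replicate number 1 the count was 4. The median of the tested members of groups 8 to 13 was 6.25 on dorsal and 5.90 on ventral array 1, and 3.87 to 5.05 on the other arrays. The median of groups 2 to 7 was 5.25 on dorsal array 1 and 3.96 on ventral array 1, against 4.24 to 4.72 on the others.

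**Figure D5:**
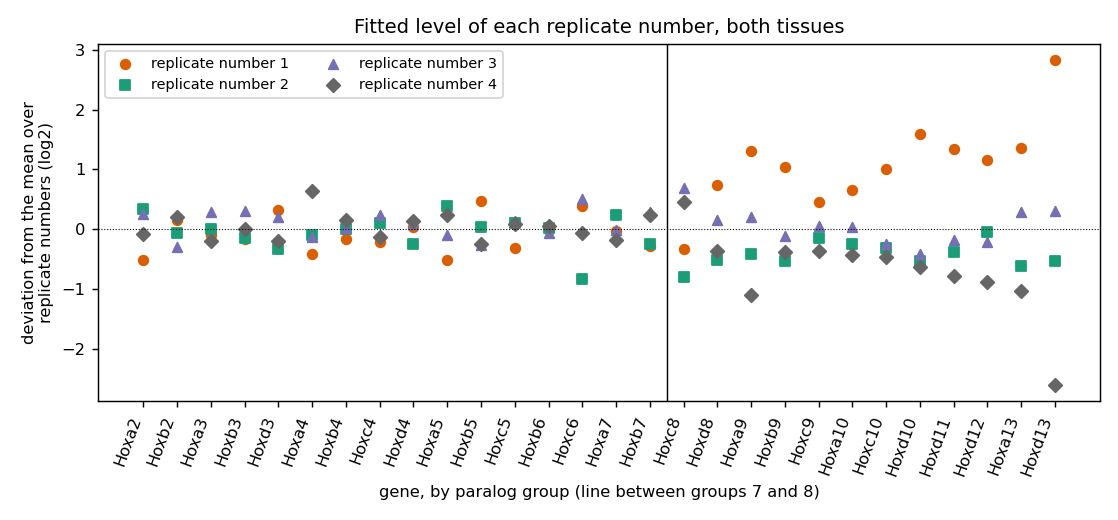
Deviation of each replicate number from the mean of the 4 (log2, fitted over both tissues) for the 28 tested Hox genes in order of paralog group. To the right of the line, groups 8 to 13, number 1 is highest in all but Hoxc8, and the widest spread is that of Hoxd13 (2.83 to -2.61).

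Markers of other cells varied between arrays too, in some lists on the same number in both tissues and in others on a lone array. The list of neurons and peripheral glia (15 tested of 17 in the table) averaged 6.46 on dorsal and 6.60 on ventral array 1, 6.39 on ventral array 3 and 4.70 to 5.40 on the rest. Tubb3, a neuronal tubulin, stood at 8.85 and 8.11 on array 1 of dorsal and ventral tissue. The list of spinal cord and neural progenitors (15 tested of 27) averaged 5.46 and 5.08 on those arrays and 4.12 to 4.72 on the others. Its genes Lhx2, Lhx9, Msx1 and Lmx1b are also in the limb bud list below. They stood at 6.94, 6.86, 6.86 and 4.31 on ventral array 1, so the mean of that array is not one of neural genes alone. Sox2, a neural progenitor factor, stood at 7.83 on dorsal array 1 and 2.34 to 4.93 elsewhere. Dorsal array 1 was the highest of the 8 in 12 of the 27, with Fabp7 at 11.18, Zic1 at 6.72 and Nes at 5.66. The share of all genes was not counted for this. Below the median on all 8 arrays were 8 of the 27, Olig2 and Pax6 among them. Sox1, Nkx2-2, Wnt1 and Olig3 are in both counts, so for them dorsal array 1 was highest only within background. Limb bud genes, listed after the values had been seen, averaged 6.30 on ventral array 1 and 5.08 to 5.53 on the other arrays, over 13 tested of 15. Dorsal array 1 was at 5.23, so the rise was not shared by the number. Within that list Hand2, Dlx5 and Msx2 stood at 7.49, 7.16 and 6.36 on ventral array 1, beside the shared Lhx2, Lhx9 and Msx1. Dlx5 and Tbx5 stood at 6.58 and 6.34 on ventral array 2. Tbx4 and Pitx1, which define the hindlimb, stayed within 4.23 to 4.97 and 3.75 to 4.37 on all arrays. Blood, liver and macrophage genes (14 tested of 19) averaged 7.63 on dorsal array 4 and 6.94 on ventral array 4. They averaged 6.99 on ventral array 1 and 6.14 to 6.71 on the rest. In 10 of the 19, array 4 was the highest in both tissues, the number in which most tested members of groups 9 to 13 were lowest. The liver genes among them were high on both arrays 4. Afp, a fetal liver protein below the filter, stood at 10.62 on dorsal and 9.69 on ventral array 4 and at 3.12 to 3.43 on the rest. Alb stood at 8.94 and 6.70 (3.33 to 3.75 on the rest), Apoa2 at 10.10 and 7.31 (4.07 to 5.06) and Ttr at 7.65 and 5.95 (3.05 to 3.40). The part of these cells in the Hox values was not tested.

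Other lists were set against the tissue. At an unadjusted p under 0.05, 4.18% of all genes tested were lower and 4.08% higher in ventral tissue. No gene of the lists here passed the adjusted test. The sclerotome and cartilage list (18 tested of 21) had 14 lower and 0 higher at the unadjusted mark. Its mean was 5.58 to 6.41 on dorsal and 4.56 to 4.91 on ventral arrays. Chad, among the 14, passed the filter only through its dorsal arrays. The list of splanchnic and gut mesenchyme (15 tested of 17) had 6 higher and 3 lower, with a mean of 5.12 to 5.44 on dorsal and 5.47 to 6.29 on ventral arrays. The mesonephros and gonad list (10 tested of 17) had 3 higher and 1 lower, at 4.68 to 4.80 and 4.97 to 5.11. Its 3 higher genes were Wt1, Osr1 and Ret. Wt1 and Osr1 are also among the 6 of the splanchnic list, so these lists are not independent. Pax2, Pax8 and Lhx1 exceeded the median on dorsal array 1 alone. The means of the sclerotome, splanchnic and mesonephros lists did not overlap between the tissues. The splanchnic means came close, at 5.44 on dorsal array 4 and 5.47 on ventral array 1. They include Tcf21, picked by its result in these data, and the mesonephros means include the shared Wt1 and Osr1. Means without these genes were not taken, so the lack of overlap in these 2 lists is no independent check. The part of such cells in the differences of Hoxc6 and Hoxc8 was not tested. Skeletal muscle genes (7 tested of 14) had 0 in either direction, with overlapping means of 4.65 to 5.62 and 4.69 to 5.02.

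Of the cofactors that Hox proteins bind DNA with, the Meis, Pbx and related TALE homeodomain proteins, 9 of 10 in the table were tested. At an unadjusted p under 0.05, 2 were higher in ventral tissue (4.08% of all genes tested) and 0 lower (4.18%). The list median was 0.17, and 0 passed the adjusted test. Pbx3 lay at 5.64, 5.21, 4.96 and 4.61 in dorsal and 5.68, 6.12, 6.42 and 7.20 in ventral tissue, a difference of 1.25 (SE 0.38; limma adjusted p = 0.435) without overlap. Meis2 differed by 0.96 (SE 0.39) and Meis1 by 0.65 (SE 0.33), with Meis1 well above the medians at 7.29 to 9.14 on all arrays. The list median was -0.37, 0.08, 0.31 and 0.70 in replicate numbers 1 to 4, so its sign turned with the number.

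Among regulators that set Hox genes on or off, few stood apart between the tissues. In the list of activators and axial regulators (11 tested of 22), Cyp26a1, which breaks down retinoic acid, was the only gene at an unadjusted p under 0.05. It lay at 3.11 to 3.73 on dorsal arrays and at 3.23, 6.83, 5.41 and 4.08 on ventral arrays, a difference of 1.49 (SE 0.59; limma adjusted p = 0.578). Aldh1a2, which makes retinoic acid, differed by 0.71 (SE 0.59), with 5.24 on dorsal array 1 and 5.23 and 6.10 on ventral arrays 2 and 4. Cdx1 and Nr6a1 were below the median on all arrays and Cdx2 on 7 of 8. Gdf11, which helps switch on high-numbered Hox genes, stood at 5.06, 5.59, 4.57 and 3.34 in dorsal and 5.64, 4.51, 5.05 and 4.19 in ventral tissue, lowest on array 4 of each. Of the Trithorax and Polycomb genes (22 tested of 24), which keep Hox genes on and off, Ezh2 was the only gene at an unadjusted p under 0.05, with means of 8.30 ± 0.17 over dorsal and 7.88 ± 0.16 over ventral arrays (SD, n = 4). Its difference was -0.42 (SE 0.15, limma adjusted p = 0.517). Kmt2a, which keeps Hox genes active, differed by -0.24 (SE 0.18).

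Noncoding RNAs and neighbours of the clusters (15 tested of 24) had 0 genes at an unadjusted p under 0.05 in either direction of the tissue difference. For the replicate number there were 2, Hoxa11os and Lnpk. Hoxa11os, an antisense RNA of Hoxa11, lay at 4.70, 3.91, 3.71 and 3.53 in dorsal and 5.25, 3.37, 3.85 and 3.06 in ventral tissue, highest on array 1 and lowest on array 4 of each. Hottip, transcribed beyond Hoxa13, exceeded the median only on ventral array 1, at 4.60, and lay at 2.83 to 3.52 on the others. Hotairm1, at the low-numbered end of HoxA, lay at 6.10 to 7.16 in dorsal and 6.23 to 7.81 in ventral tissue. Hotair in HoxC and Evx1 beside HoxA were below the median on all arrays, and Evx2, beside Hoxd13, was at 3.42 to 4.01. Of 8 ParaHox and related homeobox genes 2 were tested, and neither had an unadjusted p under 0.05.

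The clusters also hold microRNAs of the miR-10 and miR-196 families, which are known to repress Hox transcripts. The mature sequences are shown because members of a family share a seed, bases 2 to 8, given in capitals (RefSeq, GRCm38.p6).
miR-10a-5p: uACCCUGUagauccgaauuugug
miR-10b-5p: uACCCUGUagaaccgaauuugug
miR-196a-5p: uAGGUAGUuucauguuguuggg
miR-196b-5p: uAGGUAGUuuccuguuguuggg
miR-10a lies in HoxB and miR-10b in HoxD, and they differ at 1 position, U12A from miR-10a to miR-10b, counted from the 5′ end. miR-196a comes from HoxB and HoxC and miR-196b from HoxA, and they differ by A12C. The rows of Mir10b, Mir196a-1 and Mir196a-2 were below the median on all arrays, at 2.06 to 3.42. Mir10a was too, at 1.93 to 2.38, except on dorsal array 4 at 5.34. A gene-level row does not tell a hairpin from a mature microRNA, so these values say little of the mature forms.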

How the data were processed

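RNA of 200 to 1000 pg per sample was amplified and labelled, per the labels' protocols. The deposited values are log2 intensities made by the authors with Affymetrix Expression Console and RMA, per the submitters' processing notes, and are thus scaled to the rest of each array. Versions are not given in the sources used here. Rows were named with the platform table (24675 of 25429). Genes above the array median on at least 4 of 8 arrays were fitted in R 4.3.3 by limma 3.58.1, using trended, robust eBayes, with tissue and the replicate number as a fixed block. The test of ventral minus dorsal and the F test of the replicate number were moderated tests, the first two-sided, with Benjamini-Hochberg adjustment over all 12416 genes. The script was tested on simulated data. The block was kept because both tissues came from the same embryos, per the labels. The labels do not tie a number to an embryo. Deviations of same-numbered arrays correlated at 0.11, 0.03, 0.02 and 0.12 across genes, so p-values may measure only the spread between samples. Members and lists were chosen with earlier results of these data known. Values on all arrays are given for members with an unadjusted p under 0.05 in either term, without overlap between tissues, or at the ends of the range above background in a cluster. Hoxa4, Hoxa5, Hoxb8, Hoxd9 and Hoxd12 were singled out after their values were seen. Alternatives changed the block, filter, normalization, moderation, weights, arrays and background mark.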

Additional observations from a re-analysis of the deposited data

Results flagged for a closer look

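Within a tissue, a lone array stood apart from the other 3 in 8 of the 76 sets of 4 arrays by Dixon's test. Chance gives about 1 in 20. Over all genes tested, 5.93% of such sets stood apart, 0.995% with array 1 high. Among the 28 tested Hox genes it was 5 of 56 sets (8.93%), 4 of them with array 1 high. The sets share the same 8 arrays, and Hoxb8 and Hoxd9 were below the filter. In 7 of the 8 it was array 1 and the value was high. Hoxb8 stood at 6.17 on dorsal array 1 (3.06 to 3.29 on the others) and Hoxb9 at 6.85 (4.00 to 4.27). Hoxd9 stood at 4.28 on dorsal array 1 (2.63 to 2.82) and at 4.23 on ventral array 1 (2.53 to 2.71). Hoxd10 stood at 6.66 on dorsal array 1 (5.48 to 5.60) and at 8.05 on ventral array 1 (4.78 to 5.11). Hoxd11 stood at 5.84 on ventral array 1 (3.39 to 3.74). Hoxd12 was low on dorsal array 4, at 3.44 (4.02 to 4.14 on the others).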

How the results depend on the processing

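In all 19 alternative settings 0 Hox genes passed the adjusted tissue test, and the 8 members named for tissue kept their direction wherever they were tested. The lowest adjusted p of a member was 0.0813 (stricter filter). The median difference of the tested Hox genes ranged from -0.47 to -0.09 over all settings, and was -0.16 with no filter on low values. Over all genes, the count called for tissue was 4 with no replicate block, 4 with a random replicate block and 10 with the stricter filter. It ranged from 0 to 9 with 1 replicate number left out and from 0 to 20 with 1 array left out and no block. Hox genes at an unadjusted p under 0.05 for tissue were 6 with no replicate block, 5 of 12 tested with the stricter filter, 7 to 9 with 1 number left out and 4 to 9 with 1 array left out. For the replicate number they were 4 of 12 with the stricter filter and 4 to 9 with 1 number left out, an alternative added after the data were seen. Over all genes the replicate number called 8 with no filter, 3 with the stricter filter and 0 to 2 with 1 number left out, none of them Hox. Members above background numbered 16 when all 8 arrays were required and 12 at the 99th percentile of receptor genes. The filter settings test other genes, and the cause of the other shifts was not tested. Low signal limits Hoxa10, Hoxb4, Hoxb7, Hoxc5 and Hoxc9, and ventral values of Hoxc6 and Hoxc8 on array 2.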

Other observations

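Across the 28 tested Hox genes, deviations of the arrays from their tissue means correlated at r = 0.49 between dorsal and ventral array 1 and at 0.74 between dorsal and ventral array 4, but at 0.03 for arrays 2 and -0.24 for arrays 3. Dorsal array 4 and ventral array 1 correlated at -0.64, and dorsal array 3 and ventral array 1 at 0.48. These correlations are across genes, which share clusters and are not independent. Over all genes tested, same-numbered arrays correlated at 0.02 to 0.12 and differently numbered ones at -0.13 to 0.10. Of the 16 members of groups 9 to 13, 12, 10, 11 and 6 were above the array median on dorsal arrays 1 to 4 and 12, 8, 8 and 5 on ventral arrays 1 to 4.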
